A study of Mus musculus with 26 samples.

Results

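In a microRNA PCR study, 37 assays gave a signal in every one of 26 mouse samples. Their group medians lay within an 8-fold range over pluripotent cells, fibroblasts, pancreatic islets and hepatocytes. These 37 assays, called stable below for that range alone, were chosen by their measured Ct values and group medians from 315 assay positions, with 2 criteria. The threshold cycle (Ct, the PCR cycle at which fluorescence crosses a set line, so a lower Ct means more RNA) had to be below 35 in all 26 samples, which 122 positions met. The group medians of the relative level had to span less than 3 log2 units over 5 groups, a limit equal to an 8-fold difference. The relative level was the mean Ct of the 122 assays in that sample minus the assay's own Ct, taken apart for plates A and B together, plate C and plate D, so that 1 unit is 1 cycle. A further 85 positions were detected everywhere and were not kept. A list of 21 positions was left out by name; 4 of these were detected everywhere, and none of the 4 had a span below 3. Because the measured levels chose the 37 assays, their closeness between those 5 groups is a description and was not tested. The choice also favours a lower spread over all samples, fewer values far from the median and smaller differences between group medians than in the 85 others.

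The samples were 5 clones of induced pluripotent stem cells (iPSC) derived from tail-tip fibroblasts, 5 samples of the parent tail-tip fibroblasts, embryonic stem cells (ESC) of the lines D3 and R1 with 3 samples each, 3 pancreatic islet and 3 hepatocyte preparations from C57BL/6 mice, and activin A-treated cells of iPSC clones 2 and 3, with 2 samples of each clone. Untreated iPSC and both ESC lines grew on inactivated mouse embryonic fibroblast feeders with leukemia inhibitory factor, so RNA of the feeders may be in those samples. The treated cells were without feeders, on gelatin in low-serum medium for 5 days, with activin A at 100 ng/ml by the protocol and 100 ng/ul by the sample label. Treatment, loss of feeders, medium and serum changed together, and their shares in any difference cannot be told apart. The labels give the iPSC samples as separate clones and do not say whether the samples of the other groups came from separate cultures or animals, so p-values rest on the variation among these samples alone, which may be technical.

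MicroRNAs are short RNAs that guide Argonaute proteins to messenger RNAs, whose translation and stability they reduce. Some are made in a single cell type, such as the liver or islet microRNAs, whereas others are made in most cells, and those of the second kind are the usual candidates for reference genes in PCR studies. In stem-loop RT-qPCR a primer with a folded end copies a mature microRNA, and each assay has its own efficiency, so a Ct of one assay is not a measure of abundance against another assay. The deposited positions carry plate codes without microRNA names. The assays are therefore named here by position, no sequences could be assigned to them, and the cell type labels could not be checked against marker microRNAs. In such bulk samples, fewer cells of a type and less RNA per cell cannot be told apart.

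Among 26 samples, between 187 and 276 positions had a Ct below 35, with the lowest number in fibroblast replicate 5. No more than 2 Ct values were identical between any of the 325 pairs of samples. A Ct below 15 occurred in 26 of 8190 values, 11 of them in hepatocyte replicate 1, and 5 of the 26 belong to stable assays. Each reverse transcription held 5 ng of total RNA, and PCR ran for 40 cycles. Where an assay was detected everywhere, its low values also enter the reference mean. They lowered the reference of plates A and B by 1.29 cycles in hepatocyte replicate 1 and that of plate D by 2.65 cycles in fibroblast replicate 4. Some values that rest on these readings are given again with a Ct below 15 set to missing. The shares of values far from an assay's median and the standard deviations among replicates are given as measured only.

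The stable assays lay on all 4 plates. Plate A held 19 of them among 96 positions, plate B held 8 of 96, plate C held 6 of 95 and plate D held 4 of 28. Of the positions detected everywhere, these were 19 of 52 on plate A, 8 of 35 on B, 6 of 26 on C and 4 of 9 on D. Only 5 pairs of the 37 were neighbours on a plate. Their mean Ct over 26 samples had a median of 27.1 and ranged from 22.4 at D16 to 31.7 at B57, against a median of 26.6 for the 85 other assays detected everywhere. The lowest mean Cts were those of D16, A38 (23.6) and A36 (23.97), and the highest belonged to B57, A16 (30.4) and C82. The stable assays thus covered strong and weak signals alike.

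The span of the 5 group medians had a median of 2.05 over the 37 assays. It was below 1 for A65 (0.72), B05 (0.74), B55 (0.91) and A25, below 1.5 for 11 assays and below 2 for 18. With a Ct below 15 set to missing, these counts were 3, 9 and 19. The assays nearest the limit from within were D16 at 2.82, A35 at 2.79 and A05 at 2.63. Just outside it were A39 and B41 at 3.02 each and B40 at 3.05. No gap in the values separated the assays kept from those left out. The 85 other assays had a median span of 5.35, up to 11.1.

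**Figure D1:**
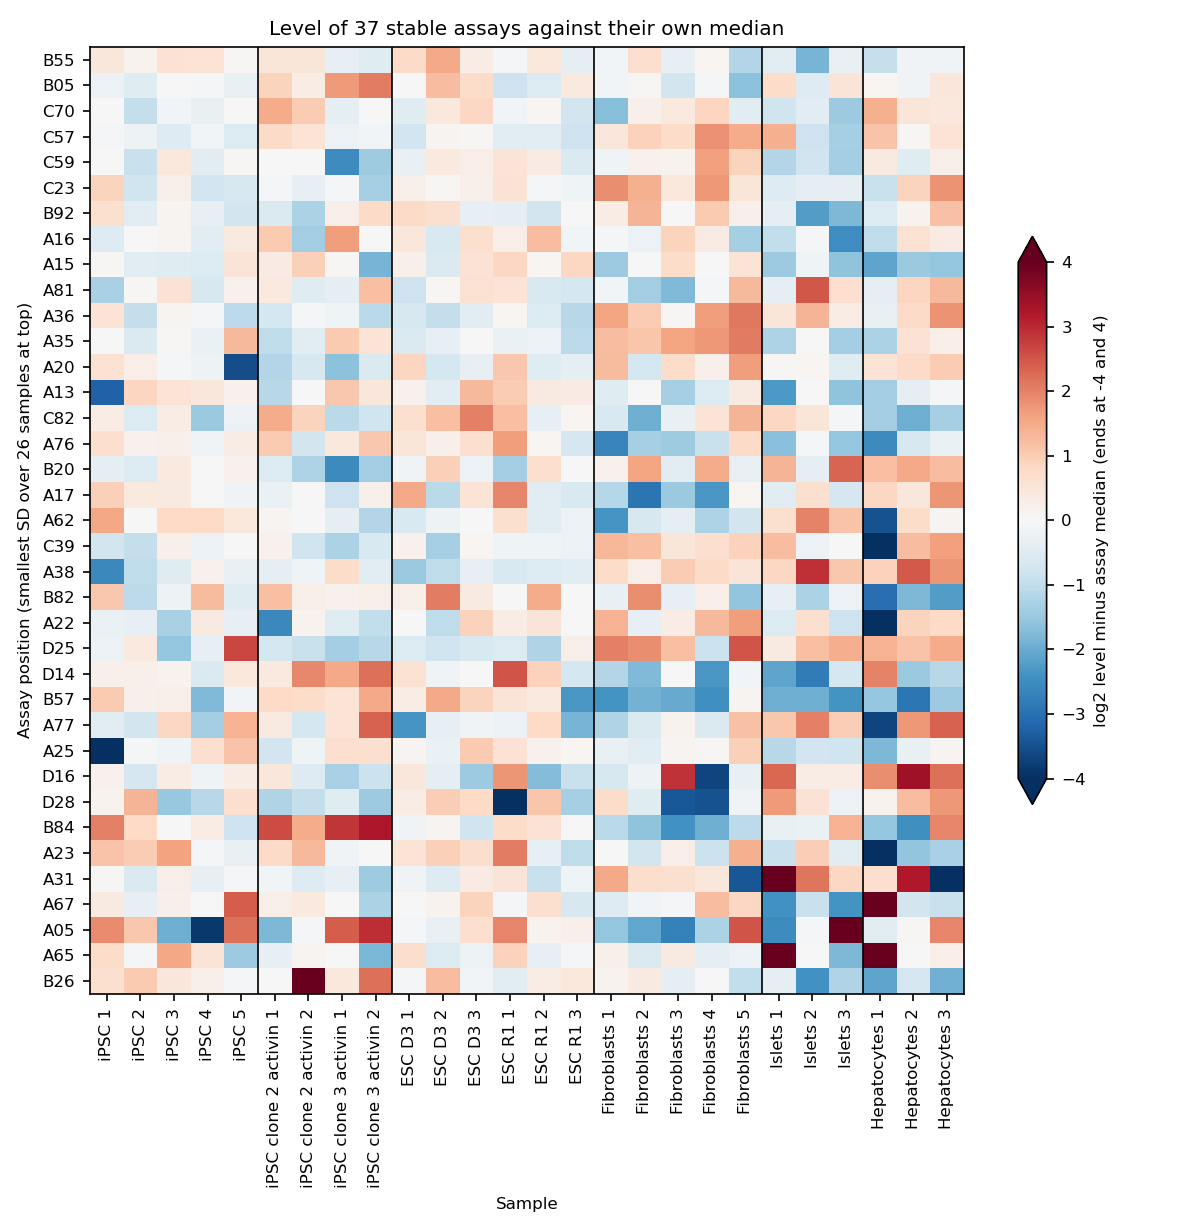
Relative level of the 37 stable assays (rows, ordered by their standard deviation) in 26 samples (columns, by group), as the log2 difference from the assay's own median. Most cells are pale, and the deepest colours fall on single samples, such as hepatocyte replicate 1, rather than on whole groups: 12 of 962 values lie more than 4 units from the assay's median.

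The position B55 had the smallest standard deviation (SD) over the 26 samples, 0.68 on the log2 scale. Its relative level was -0.72, -1.05, -0.60, -0.64 and -1.14 in the 5 untreated iPSC clones. It was -0.41, 0.34 and -0.88 in ESC D3 and -1.22, -0.76 and -1.57 in ESC R1. These pluripotent samples overlapped, apart from a single D3 sample above 0. Fibroblasts gave -1.29, -0.51, -1.52, -1.10 and -2.34, islets -1.63, -3.05 and -1.48, and hepatocytes -2.09, -1.32 and -1.32. As measured, the islet and hepatocyte samples lay below the iPSC samples and fibroblasts lay across both. With a Ct below 15 set to missing, hepatocyte replicate 1 was at -0.80, inside the iPSC range, and the span of B55 was 0.71. The treated cells gave -0.71 and -0.69 in clone 2 and -1.49 and -1.66 in clone 3, so the 2 treated clones did not overlap with each other.

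C70 had an SD of 0.79 over the 26 samples. Its level was 0.53, -0.42, 0.41, 0.24 and 0.53 in untreated iPSC, and 0.03, 0.96 and 1.35 in D3 against 0.43, 0.61 and -0.22 in R1. In fibroblasts it was -1.18, 0.72, 0.92, 1.40 and 0.11. Pluripotent cells and fibroblasts overlapped, with 1 fibroblast sample the lowest of all 26. Islets were at -0.27, 0.06 and -0.92, and hepatocytes at 1.96, 1.01 and 0.96. These 2 groups did not overlap for C70, although their medians, -0.27 and 1.01, set the whole span of 1.28. With a Ct below 15 set to missing, hepatocyte replicate 2 was at 1.66 and the span 1.93. The treated samples were at 2.01 and 1.56 in clone 2 and 0.18 and 0.55 in clone 3.

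B05, with an SD of 0.79, was most uniform among the untreated clones, at 0.76, 0.49, 1.00, 0.95 and 0.70. Fibroblasts were at 0.87, 1.02, 0.25, 0.91 and -0.65, islets at 1.71, 0.48 and 1.49, and hepatocytes at 1.05, 0.85 and 1.44. Every one of these groups overlapped with the untreated clones. Hepatocyte replicate 1 was at 2.34 with a Ct below 15 set to missing, and the span of B05 was then 0.92. The ESC lines were at 0.97, 2.21 and 1.72 (D3) and 0.17, 0.45 and 1.36 (R1), which also overlapped. The other assays with the smallest SDs were C57 (0.80) and C59 (0.84), both on plate C. On plate D the smallest SD was 1.27, at D25, whose group medians of -3.18 in iPSC and -3.53 in ESC lay below those of fibroblasts (-1.08), hepatocytes (-1.56) and islets (-1.74).

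**Figure D2:**
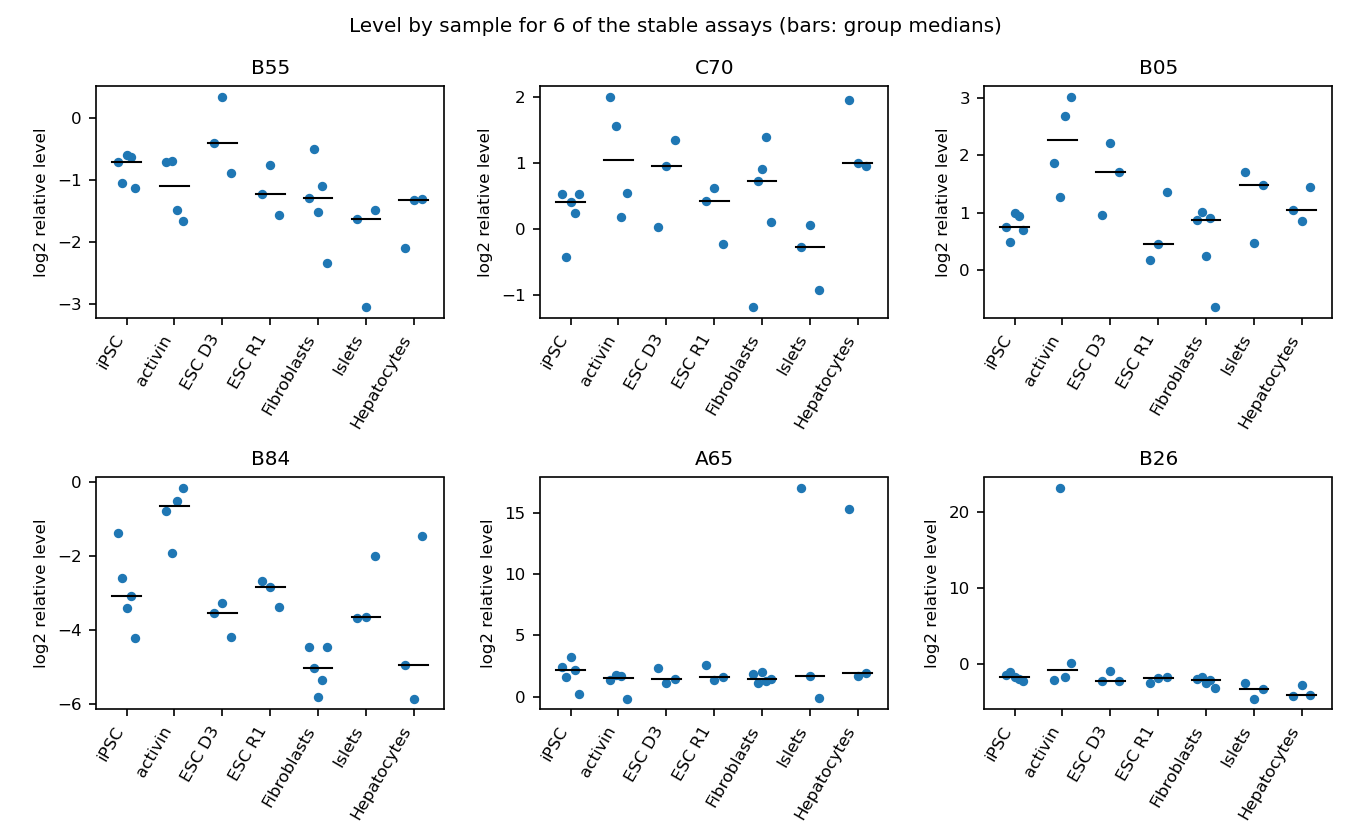
Log2 relative level of 6 stable assays in each sample (points) with the group medians (bars); the panels have their own vertical scales. B55, C70 and B05 stay within a few units in all groups, B84 is highest in the activin-treated samples, and A65 and B26 hold single samples at 15.32 or above.

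Group medians within the limit did not mean small differences between samples. The SD over all 26 samples had a median of 1.14 in the stable assays and 2.16 in the other assays detected everywhere. It was below 1 in 12 of 37 against 1 of 85, a contrast that the span limit favours. It was above 3 in 4 stable assays, B26 (5.09), A65 (4.04), A05 (3.54) and A67 (3.13), and the next was A31 (2.14). Those 4 are the stable assays with a Ct below 15. Without such values, but with the reference mean left as measured, their SDs were 1.03 for B26, 0.79 for A65, 1.86 for A05 and 1.03 for A67.

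A65 had the smallest span of all. It read 2.41, 1.58, 3.22, 2.17 and 0.20 in untreated iPSC and 1.87, 1.10, 2.01, 1.28 and 1.44 in fibroblasts. Islets gave 17.00, 1.68 and -0.13, and hepatocytes 15.32, 1.68 and 1.93. Islet replicate 1 (Ct 7.75) and hepatocyte replicate 1 (Ct 10.2) thus stood more than 12 units above every other sample, and the medians of their groups, 1.68 and 1.93, passed them by. With a Ct below 15 set to missing, the span of A65 was 1.30. B26 read -2.17 and 23.18 in the treated samples of clone 2, the second from a Ct of 2.82, and between -4.57 and 0.06 in the 24 others. A05 had 1 islet sample at 15.77 (Ct 10.7), and without it still differed among untreated clones, at 2.19, 1.38, -1.63, -3.55 and 2.52. A67 had hepatocyte replicate 1 at 15.53 (Ct 9.99), the other hepatocytes at -0.19 and -0.36, and islets at -1.88, -0.34 and -1.84.

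Of 962 values of the stable assays, 33.5% lay more than 1 unit from the assay's own median, 9.25% more than 2 units and 1.25% more than 4. For the other assays detected everywhere these shares were 52.5%, 29.6% and 10.2%, a contrast that the span limit also favours. As measured, the values more than 4 units away were 12, in 10 assays, and 5 of the 12 came from hepatocyte replicate 1. The 5 readings of stable assays with a Ct below 15 were all among the 12. A22 in hepatocyte replicate 1 read -4.63, and -3.33 with a Ct below 15 set to missing. Also among the 12 were values of A31, which was at 6.70, 1.40 and 0.07 in islets and at -0.09, 2.44 and -5.72 in hepatocytes. A31 was therefore high in 1 islet and low in 1 hepatocyte sample without a Ct below 15 in either. D28 was at -5.88 in 1 R1 sample against -0.57 and -3.01 in the other two. In hepatocyte replicate 1, 11 of the 37 assays were over 2 units from their own median, and 8 with a Ct below 15 set to missing.

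On plate D the reference rested on 9 assays, and a single Ct of 2.74 in fibroblast replicate 4 moved it. There D16 read 0.16, against 3.18, 3.61, 6.72 and 3.53 in the other fibroblasts, and D14 read -3.91, against -2.78, -3.37, -1.58 and -1.72. With the low Ct set to missing, D16 in that sample read 2.82, D14 -1.26, D25 -1.17 and D28 -2.51. D25 and D28 then lay within the range of the other fibroblast samples, D16 was the lowest of them and D14 the highest. With every such Ct set to missing, 36 of the 37 assays still met the rule, and A17, with a span of 3.24, did not.

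Among replicates of a group, the stable assays were about as variable as the rest. The SD among replicates, pooled over 8 groups, had a median of 0.958 in the stable assays (0.524 to 4.28) and 1.03 in the 85 others (0.511 to 4.36). The median SD within a group was 0.69 in untreated iPSC, 0.60 in D3, 0.63 in R1, 0.85 in fibroblasts, 0.87 in islets and 0.86 in hepatocytes. The median SD of the raw Ct within fibroblasts was 2.37, well above that of their relative level. Over all groups the pooled SD of the raw Ct had a median of 1.51 in the stable assays and 1.64 in the others, and subtraction of the reference lowered it in 36 of the 37 stable assays and 84 of the 85 others.

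**Figure D3:**
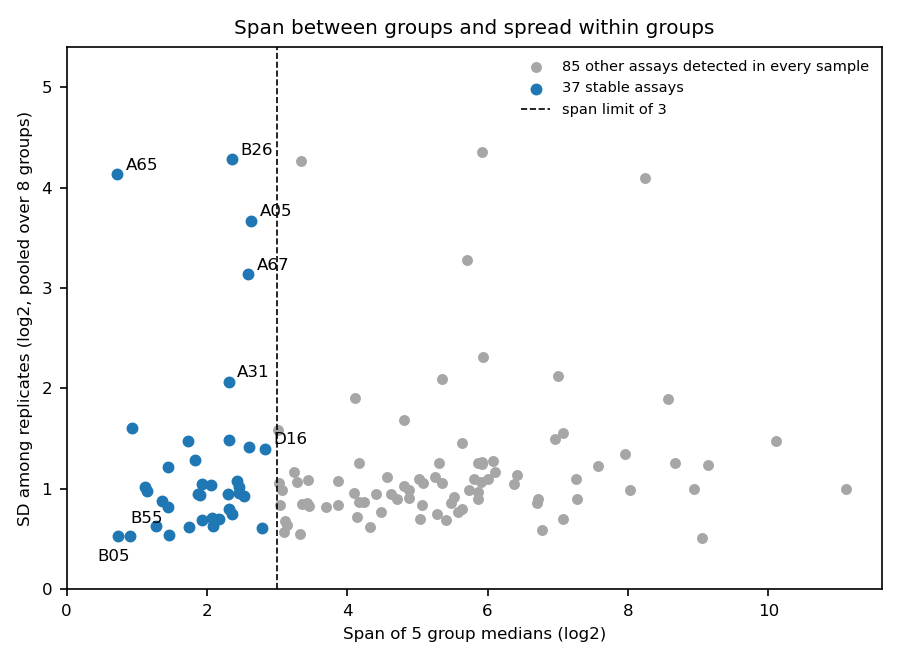
Span of the 5 group medians (horizontal, log2) against the SD among replicates pooled over 8 groups (vertical, log2) for the 37 stable assays (blue) and the 85 other assays detected in every sample (grey); the dashed line is the limit of 3. The blue points lie left of the line by construction and overlap with the grey ones in height, with A65, B26, A05 and A67 above 3 units.

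No single group stood at one end for most stable assays. The highest group median was that of ESC in 9 assays, hepatocytes in 9, untreated iPSC in 8, fibroblasts in 7 and islets in 4. The lowest was that of islets in 13, ESC in 8, fibroblasts in 8, hepatocytes in 5 and untreated iPSC in 3. The size of the difference between medians was small between iPSC and ESC, with a median of 0.30 over the 37 assays, and was 0.72 between iPSC and fibroblasts, 0.91 between iPSC and islets, 0.93 between iPSC and hepatocytes and 1.04 between islets and hepatocytes. With a Ct below 15 set to missing, hepatocytes had the highest median in 11 assays and fibroblasts in 5, islets had the lowest in 15, and the medians of the differences ranged from 0.30 between iPSC and ESC to 1.07 between iPSC and hepatocytes. In the 85 other assays, as measured, the same medians were 0.42, 2.94, 2.56, 3.36 and 2.14. D16 and A35 show the widest patterns kept. D16 had its highest median in hepatocytes (6.02), against 4.13 in islets, 3.99 in iPSC, 3.53 in fibroblasts and 3.20 in ESC. A35 was highest in fibroblasts (1.00) and lowest in islets (-1.79).

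The raw Cts of the stable assays differed between samples by more than their relative levels did, with a median SD over 26 samples of 1.69 cycles against 1.14. Their mean Ct was 27.7 ± 0.624 (SD, n = 5) in untreated iPSC, 27.3 ± 0.237 (n = 3) in D3 and 28.1 ± 0.389 (n = 3) in R1. It was 26.2 ± 0.951 (n = 3) in islets and 27.3 ± 0.461 (n = 3) in hepatocytes. Fibroblasts were the most spread, at 26.6 ± 2.26 (n = 5), from 23.7 in replicate 3 to 29.952 in replicate 5. Treated samples of clones 2 and 3 averaged 26.1 and 26.3. Without the 4 assays that have a Ct below 15, hepatocytes were at 27.7 ± 0.105 (n = 3), islets at 26.5 ± 0.981 (n = 3) and treated clone 2 at 26.4. A difference of raw Ct holds RNA input and PCR yield as well as microRNA level, and these cannot be told apart here.

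**Figure D4:**
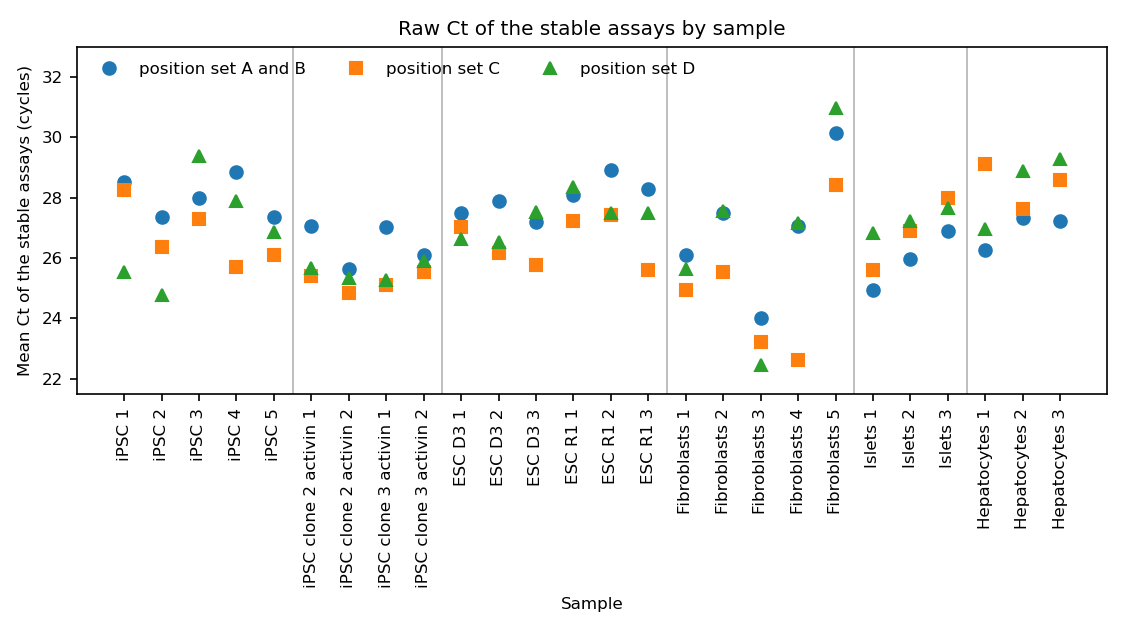
Mean raw Ct of the stable assays (vertical, cycles; the axis does not start at 0) in each of 26 samples, apart for plates A and B, plate C and plate D. On plates A and B the fibroblast samples spread most, with replicate 3 lowest and replicate 5 highest among them.

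Activin A, a growth factor of the TGF-beta family that is added to stem cells to make endoderm, gave the first comparison that was tested. The choice of assays had required detection in the treated samples and had used the median of the untreated ones, but not the difference between them. No stable assay passed an adjusted p of 0.05 in limma (0 of 37), where 0.352% of 284 assays tested passed, that is 1 assay. At an unadjusted p under 0.05 there were 3 of 37, all higher in treated cells, where 8.8% of the 284 did so in either direction and 4.23% as higher. The level was higher in treated cells in 18 of 37, against 46.1% of all tested. This direction depended on the reference: with RNU6, whose Ct could be had for 20 samples and none of the ESC, it was higher in 34 of 37 and in 89.1% of the 284, the median difference of the stable assays was 1.74 and that of all tested 1.68, and 0 of 37 had an adjusted p under 0.05 in limma. The difference had a median of -0.07 over the stable assays, and its size a median of 0.54, against 0.70 over all 284 and 0.52 over the 85 other assays detected everywhere. The 95% interval of the difference reached a median of 1.76 units to either side. It lay within 2 units of 0 for 9 of the 37 assays, among them B55 (-0.31, from -1.53 to 0.91), A16, A35, A36 and C57, for 20 of the 85 others and for 40 of the 284. A 4-fold difference could therefore not be set aside for the other 28. The spread of an assay was estimated over all groups, including those not compared. Islet or hepatocyte wells with a Ct below 15 thus entered the intervals of A05, A65 and A67 (SE 2.96, 3.29 and 2.51).

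B05 was the only stable assay whose treated and untreated samples did not overlap (1 of 37, against 7.04% of all 284, and 3.52% counting only those higher in treated cells). It was at 1.86 and 1.28 in treated clone 2 and at 2.69 and 3.03 in treated clone 3, all above the 5 untreated clones, which reached 1.00. The difference was 1.44 (standard error, SE, 0.588), with an adjusted p of 0.396 in limma, and 2.95 with RNU6 as the reference (adjusted p 0.351 in limma). B84 was at -0.80 and -1.92 in treated clone 2 and -0.53 and -0.17 in treated clone 3. Untreated clones were at -1.38, -2.61, -3.41, -3.10 and -4.23, so that 1 untreated sample lay inside the treated range. Its difference was 2.09 (SE 0.915; adjusted p 0.493 in limma), and 3.61 with RNU6 (adjusted p 0.321 in limma). D14 had a treated-minus-untreated difference of 1.43 (adjusted p 0.863 in limma) and B20 one of -1.37 (adjusted p 0.777 in limma), which was 0.15 when RNU6 served as the reference.

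B26 had the smallest p among the stable assays, and the difference rested on a single well. The difference was 6.52 (SE 1.62), with an adjusted p of 0.0611 in limma. Without the second treated sample of clone 2, or with a Ct below 15 set to missing, it was 0.18. It passed the threshold when values above the limit were set to missing (adjusted p 0.0468), when only assays detected in every compared sample were tested (0.0374), and without treated clone 3 replicate 1 (0.0272), in each case with that well in the data.

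The median of the treated samples lay inside the range of the 5 other group medians for 19 of the 37 assays, above it for 10 and below it for 8. It was more than 1 unit outside for 3. With the treated cells added as a further group, 34 of the 37 still spanned less than 3. The 3 that did not were B84 (4.36), D14 (3.83) and B26 (3.23). The B26 span, and its place above the range, rested on the treated well with a Ct of 2.82. Its other treated values were -2.17, -1.72 and 0.06, and their median, -1.72, lay inside the range of the 5 other group medians. For B84 and D14 the treated medians, -0.66 and 0.12, were the highest of all groups, while fibroblasts (-5.02) and islets (-3.71) were the lowest.

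**Figure D5:**
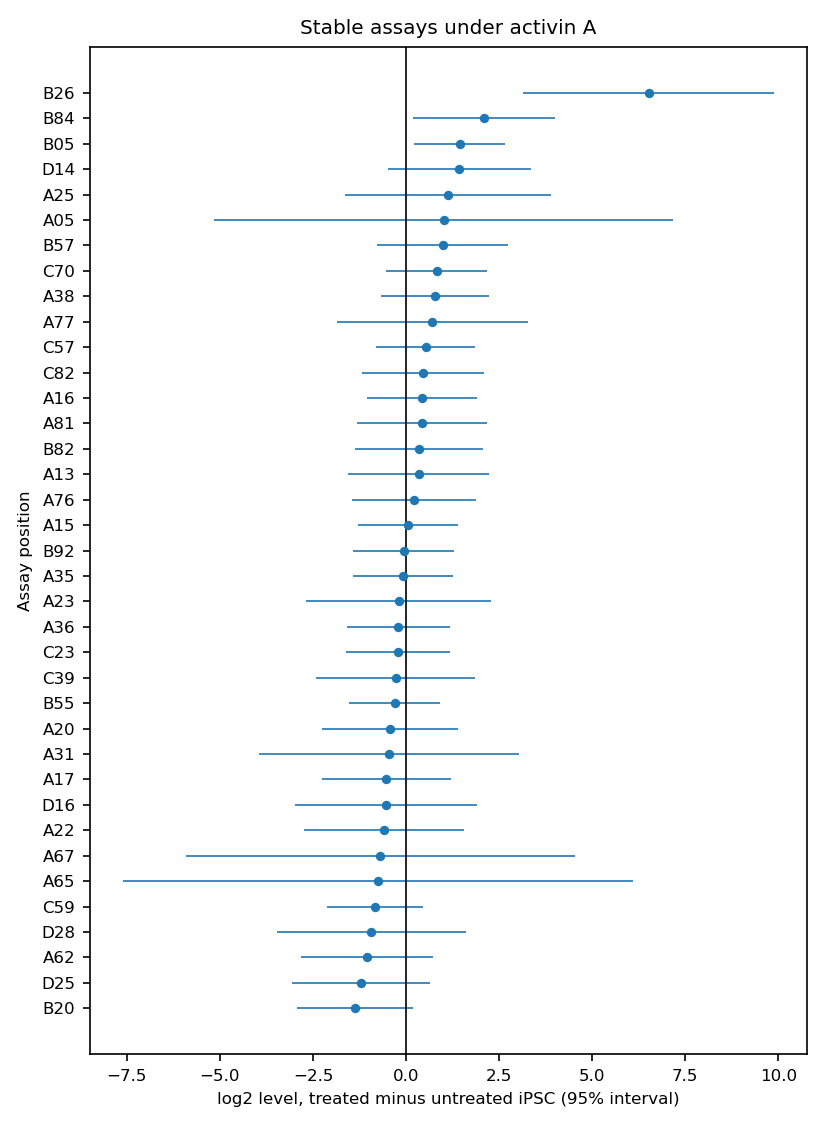
Difference in log2 level between activin-treated and untreated iPSC for each of the 37 stable assays (points) with its 95% interval from limma (bars). The interval crosses 0 for all but B26, B05 and B84, none of which had an adjusted p under 0.05.

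The 2 ESC lines, which the choice of assays had pooled, gave the second comparison. No assay, stable or other, passed an adjusted p of 0.05 in limma (0% of 273), and 3 of 273 (1.1%) had an unadjusted p under 0.05, none of them stable. No stable assay separated the 3 D3 from the 3 R1 samples, whereas 9.89% of the 273 did. The level was higher in D3 in 21 of 37 stable assays and in 42.5% of all tested. The size of the difference had a median of 0.31 in the stable assays, 0.46 in the 85 others detected everywhere and 0.55 over all. The interval lay within 2 units of 0 for 16 of 37 stable assays, among them A16, A35, A36, A38, B20, C57, C59, C70 and D25, for 24 of the 85 others and for 48 of 273. The intervals reached a median of 1.71 to either side. Islet and hepatocyte wells with a Ct below 15 entered the spread here as well, as in A65 (difference -0.19, SE 3.20).

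The largest of the differences named was that of D28, at 2.14 (SE 1.19), with D3 at -1.41, -0.72 and -0.90 and R1 at -5.88, -0.57 and -3.01. The D3 samples were close together and lay within the range of R1. The difference of D28 was 0.78 without R1 replicate 1 and 3.44 without R1 replicate 2. B57 differed by 1.38 (means of -3.40 in D3 and -4.78 in R1, whose samples were at -3.80, -3.91 and -6.64), and by 0.45 without the lowest of these, R1 replicate 3. B05 differed by 0.97, C82 by 0.96 and B55 by 0.87, each higher in D3 on average. Without D3 replicate 2, B55 differed by 0.54, and C82 by 0.59 without D3 replicate 3 and 0.64 without R1 replicate 2.

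The third comparison asked whether clones 2 and 3 differed in their response to activin A, with 1 untreated and 2 treated samples of each. The single untreated sample of a clone has no spread of its own and was taken to vary like the other groups, so the standard errors here rest on that assumption. No assay passed an adjusted p of 0.05 in limma (0% of 284), and 3.87% had an unadjusted p under 0.05, among them 1 stable assay, C59. C59 was at 1.18 untreated and 2.03 and 2.05 treated in clone 2, and at 2.48 untreated and -0.46 and 0.62 treated in clone 3. The treated samples minus the untreated one gave 0.86 in clone 2 and -2.40 in clone 3, a difference of -3.26 (SE 1.17; adjusted p 0.594 in limma). With RNU6 as the reference the sign turned, to 3.29. C82 (-2.98) and C70 (-2.25) also had a negative difference that turned with RNU6, to 3.57 and 4.30. All 3 are on plate C. The RNU6 Ct of that plate, centred on untreated iPSC, stood at 9.39 for treated clone 3 replicate 1. Replicate 2 of the same treated clone had -1.38, and the treated clone 2 pair had 1.55 and -1.11. How far the turned signs rest on this single RNU6 reading of 9.39 was not tested. B20 differed by -2.02, and B26 by -10.72, which was 1.96 without the second treated sample of clone 2. The interval reached a median of 3.75 to either side in the stable assays, and for none did it lie within 2 units of 0.

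The submitters used the small nuclear RNA RNU6 as their reference, and its Ct could be worked back from the deposited differences for 20 samples. The mean level of the stable assays of plates A and B relative to RNU6, set to 0 in untreated iPSC, had an SD of 0.404 there. It was 1.87 ± 0.524 (SD, n = 4) in treated samples and 2.86 ± 1.20 (n = 5) in fibroblasts. In fibroblasts the RNU6 Ct was 1.80 cycles higher than in iPSC while the mean Ct of the stable assays was 1.06 cycles lower. The SDs of 2.55 and 2.23 exceeded these shifts, and both Cts moved to the same side in 3 of the 5 fibroblast samples. The level relative to RNU6 was above 0 in all 5 fibroblast samples, from 1.84 to 4.81. In hepatocytes the level was -3.40 ± 1.72 (n = 3) relative to islets, whose SD was 2.12. Without the 4 assays that have a Ct below 15 these levels were 1.67 ± 0.878 (n = 4) in treated samples, 2.93 ± 1.22 (n = 5) in fibroblasts and -3.54 ± 1.01 (n = 3) in hepatocytes. On plate C the treated samples gave 3.64 ± 5.09 (n = 4), from -0.18 to 11.02, and 1.17 ± 1.57 (n = 3) without the highest, clone 3 replicate 1. Fibroblasts gave 3.38 ± 2.12 (n = 5) on plate C and -0.19 ± 0.548 (n = 5) on plate D. On plate D the treated samples gave -0.007 ± 0.810 (n = 4). Hepatocytes, relative to islets, gave -0.49 ± 1.79 (n = 3) on plate C and -3.06 ± 2.51 (n = 3) on plate D.

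A positive log2 value in the authors' deposited table means a higher normalised Ct, hence less RNA, in the group named first. For iPSC minus fibroblasts, 34 of the 37 stable assays were above 0 in the authors' deposited table, with a median of 2.82, where 72% of 296 assays were above 0 with a median of 1.87. For islets minus hepatocytes it was 5 of 37, with a median of -3.09, against 19.6% of 286 and a median of -3.33 in the authors' deposited table. For untreated minus treated iPSC it was 34 of 37, with a median of 1.74, against 88.4% of 303 and a median of 1.66 in the authors' deposited table. The span limit, set on the same Ct values, holds the stable assays close together in the first 2 of these comparisons. It therefore favours their contrasts with all assays. For iPSC minus fibroblasts, the assays below 0 were D14, D16 and D28, all on plate D. B55 stood at 2.46, -2.74 and 1.21 in the authors' deposited table for these comparisons, in that order. The 5 group medians of B55 relative to the mean of the assays detected everywhere lay within 0.91 units of each other. The choice of assays had limited that span, which leaves out the treated cells. The deposited values are differences of group means, so the 2 measures are not alike.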

How the data were processed

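RNA of 26 mouse samples was assayed by TaqMan stem-loop RT-qPCR for 303 microRNAs, per the labels' protocols, and the deposited Ct table has 315 positions on 4 plates. Ct values were not normalised in that table. The authors normalised Ct to RNU6 and deposited a second table of log2 group differences, which its header calls fold changes. Its values equal differences of RNU6-normalised Ct, tested on the files. The sources used here do not give the authors' analysis software.

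The members and lists were chosen with earlier results of these data known. Members followed the rule in the opening of the results. Samples were tested with limma 3.58.1 (R 4.3.3), with Ct above 35 or missing set to 35, on assays that were below 35 in 50% or more of one of the compared groups' samples, with Benjamini-Hochberg adjustment over all of them and a threshold of 0.05. The first 2 comparisons came from a model over all groups with treated duplicates of a clone averaged (2 treated clones against 5 untreated), the third from unaveraged samples. No sample was dropped. Python 3.11.15 computed the descriptions. Tested on simulated data, 16-fold differences were recovered for 69.5% of assays in the activin, 72% in the ESC and 3.17% in the clone comparison, and 4-fold differences for 4.33%, 12% and 0%.

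Named were the 5 assays with the smallest and the 5 with the largest SD over all samples, the 3 with the largest span and 3 just outside the limit, the smallest SD in each position set, the 3 lowest and 3 highest mean Cts, and the 5 smallest p-values in each comparison; other assays named were chosen after their values were seen. The number of samples limits the precision. Treated clones 2 and 3 pair with their untreated clones by the labels, and deviations of the pairs correlated at -0.169 and -0.113. The treated samples were centred on their common mean, so the treated deviations of clone 2 mirror those of clone 3. These correlations are therefore not independent checks of the pairing. Alternatives covered the reference, limits, filters, pairing and each sample left out; a median reference and leaving out a Ct below 15 were added after seeing the data.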

Additional observations from a re-analysis of the deposited data

Results flagged for a closer look

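For 22 named assays and for the mean raw Ct of all 37, the values in the 5 untreated iPSC and the 5 fibroblast samples, 46 sets in all, were searched for a sample far from the others. In independent sets, chance alone picks about 1 in 20. That rate does not apply here, because the sets share samples and A05, A31 and A67 were named for their large SD over the same samples. The search picked 5 of the 46. In 3 of the 5 the sample was fibroblast replicate 5, which had the fewest positions below Ct 35 (187) and the highest mean raw Ct of its group; the part of these in the result was not tested. There A05 stood at 2.82, with the next fibroblast sample at -0.95, and B57 at -4.19, with the next at -6.20. A31 was low in the same sample, at -4.17, with the next at -0.30. In untreated iPSC, A67 was high in replicate 5 at 2.95 (next 0.91), and D14 was low in replicate 4 at -2.18 (next -1.45).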

How the results depend on the processing

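The number of stable assays was 37, between 26 and 55 under other settings except a span limit of 2, which gave 18, and 35 to 41 with each sample left out. Of the 37, 29 were kept in every one of those. A reference by the median kept 33, and group means 31. The median SD among replicates was 0.958, and 0.831 to 1.05 under other settings (0.869 to 0.985 with a sample left out). For activin, 1 assay of all tested passed; 0 passed with 1 mean over all plates, no filter, RNU6, the median reference or clone as the replicate block, 2 with only the groups compared or a limit of 32, 3 with quantile normalization or detection in every sample, 4 with missing values or unaveraged samples, and 0 to 5 with a sample left out. Under the clone block 1 stable assay had an unadjusted p under 0.05 in place of 3. For the clone difference, with 0 passing, 3 passed with only the groups compared, 1 with no filter or RNU6, and 0 to 2 with a sample left out; without treated clone 2 replicate 1, B26 stood at -23.39 (limma adjusted p 2.8e-09), 1 treated well (Ct 2.82) against 1 untreated, with the spread taken from other groups. For D3 against R1 the count was 0 in every setting run, the replicate block on the sample number included; those numbers were not taken to pair samples (correlations -0.109, 0.196 and -0.492). Of 275 values of named assays, 6 turned sign: B20 under activin with RNU6 (0.15), C59 (3.29), C82 (3.57) and C70 (4.30) in the clone difference with RNU6, and B26 there (1.96) without treated clone 2 replicate 2 and with a Ct below 15 missing. For C59, C82 and C70 the RNU6 reference included the plate C reading of 9.39 in treated clone 3 replicate 1. The cause of the turned signs was not tested.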

Other observations

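The 21 values below Ct 15 outside the stable assays fell on 20 positions. D12 held 2 of them, at a Ct of 3.43 in untreated iPSC replicate 2 and 11.7 in the first treated sample of clone 2. Hepatocyte replicate 1 held A64 at 3.74 and D15 at 3.36, and the second treated sample of clone 2 held B64 at 3.26, beside the B26 reading of 2.82 on the same plate.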
